A study of Sus scrofa with 6 samples.

Results

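ERP29 and 5 other factors that fold proteins in the endoplasmic reticulum were followed in mature pig oocytes, the egg cells, from adult and from prepubertal females. The genes were ERP29, HSPA5, HSP90B1, CALR, PDIA3 and P4HB. All probe sets of the Affymetrix porcine array whose single platform gene symbol was one of these 6 were taken, which gave 8 probe sets of 5 genes. The array has 23999 probe sets that are not controls, with 6765 single gene symbols among them. They were 1 of ERP29, 1 of HSPA5, 1 of CALR, 2 of HSP90B1 and 3 of PDIA3. No probe set carried P4HB as its single symbol, so P4HB was not analysed here. ERP29 was chosen by its measured difference between the groups on these same arrays, so that difference is given as a description with no test. The other genes were set beside it for their function.

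There were 3 arrays of adult (sow) and 3 of prepubertal (gilt) oocytes, described in the labels as biological replicates, the adult oocytes being called developmentally competent and the prepubertal ones incompetent. In both groups oocytes came from follicles of 2 to 6 mm, were matured in culture for 42 to 44 h, were stripped of cumulus cells, the somatic cells that surround the egg, and were at metaphase II, the stage that awaits fertilization. No treatment or genotype separates the groups, and the labels do not give the number of oocytes and animals behind an array. P-values therefore set a group difference against the scatter of these samples only, which may be technical. RNA was captured by its poly(A) tail and amplified in a pair of cycles, so fewer transcripts and shorter tails cannot be told apart in these signals, nor can fewer oocytes and less RNA per oocyte.

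Proteins that are secreted or reach the cell surface, such as the egg coat proteins, enter the endoplasmic reticulum as they are made and fold there. HSPA5 (BiP, an Hsp70 chaperone) and HSP90B1 (GRP94, an Hsp90 chaperone) bind unfolded chains. CALR (calreticulin) is a calcium-binding lectin that holds newly made glycoproteins, and it works with PDIA3 (ERp57), a thiol oxidoreductase that forms and reshuffles disulfide bonds. P4HB is the founding protein disulfide isomerase. ERP29 belongs to the same family by its thioredoxin-like fold, but lacks the active-site cysteine pair of the enzymes and is regarded as a chaperone and escort factor. HSPA5, HSP90B1, CALR and PDIA3 are classical targets of the unfolded protein response, which raises the folding capacity of the compartment when unfolded chains accumulate.

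Signal is the MAS5 value of a probe set on a linear scale, as deposited, and is compared between arrays only, never between probe sets. Array levels differed: 2% trimmed mean signals lay between 121 and 160 in adult and between 105 and 131 in prepubertal oocytes, which is −0.27 on the log2 scale (2-sided exact permutation p = 0.2, where 0.1 is the smallest p possible). The bacterial hybridization controls, added RNAs, went the other way: their mean log2 signal was 10.75 to 10.88 in adult and 10.89 to 11.17 in prepubertal arrays, without overlap, a difference of 0.22 (exact permutation p = 0.1). Of 12000 probe sets tested, 74.8% had lower values in prepubertal oocytes, and the median of their log2 differences was −0.20. Quantile normalization, which gives all arrays 1 distribution, brought that median to −0.01. Differences below are on the log2(signal + 16) scale, prepubertal minus adult. The value after quantile normalization is given for every member, and for other genes in brackets or as the second of a pair. The oocyte markers in both groups matched the labels, with signals of 4733 ± 230 in adult and 4591 ± 621 in prepubertal oocytes for the linker histone H1FOO and 2636 ± 279 and 2544 ± 111 for the egg coat gene ZP4 (SD, n = 3). For the egg coat gene ZP3 they were 543 ± 122 and 429 ± 42.9, and for the oocyte growth factor GDF9 360 ± 137 and 231 ± 66.6.

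ERP29 was the member with the largest difference. Its signals in adult oocytes were 426, 373 and 469 in replicates 1, 2 and 3, and in prepubertal oocytes 125, 123 and 106. Every prepubertal array thus lay far below every adult array. The means were 423 ± 47.9 and 118 ± 10.6 (SD, n = 3 each), and the log2 difference was −1.70 ± 0.22 (SE), or 3.26-fold lower. After quantile normalization the log2 difference was −1.45 ± 0.16, 2.74-fold lower, and the groups still did not overlap. As a description, this was the difference at rank 3 from the lowest among the 12000 tested probe sets. A single probe set stood for ERP29, so no second probe set could be set beside it.

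**Figure D1:**
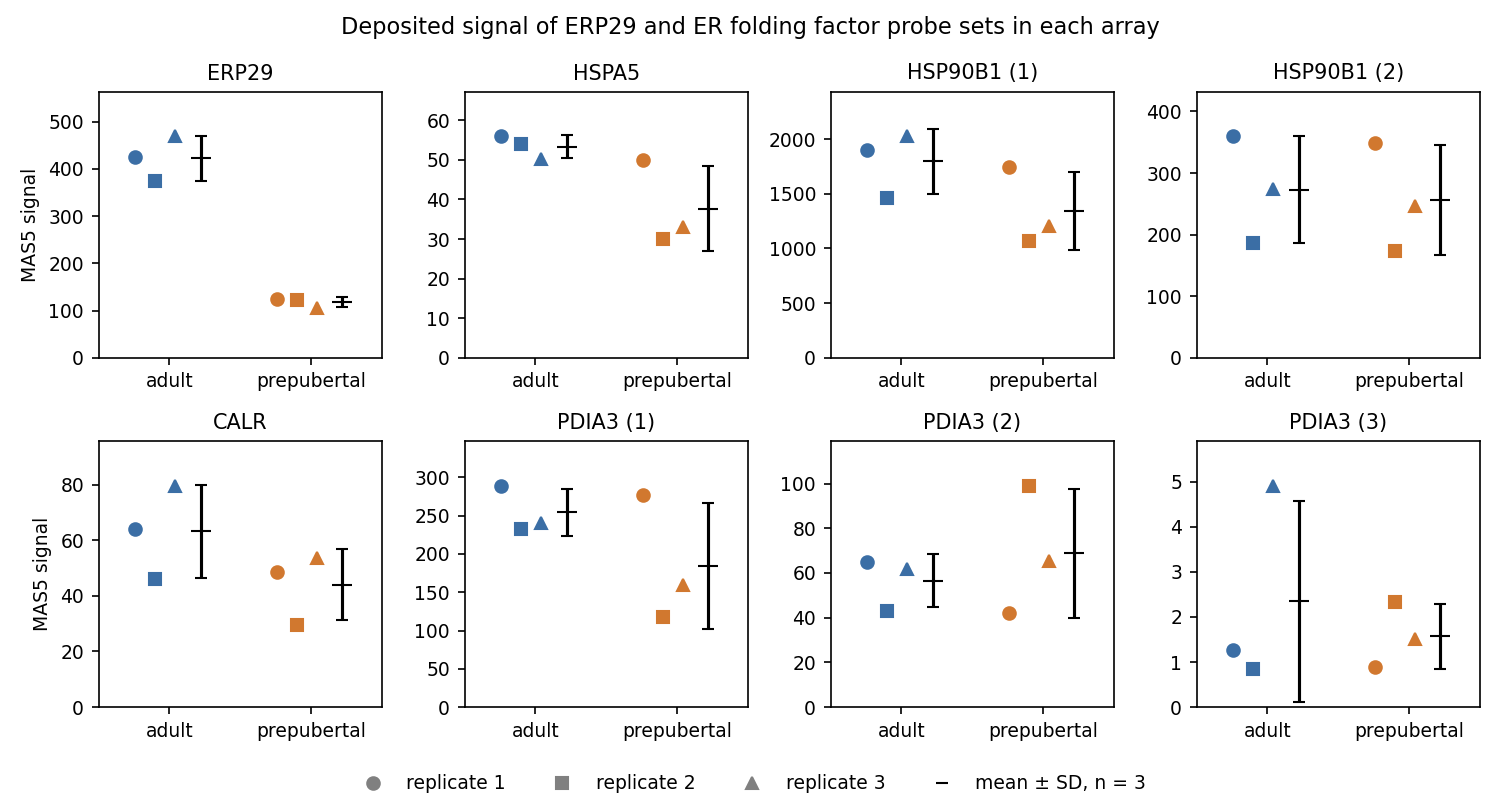
Deposited MAS5 signal (vertical axes, each starting at 0 and scaled to its own probe set) of the 8 probe sets in 3 adult (blue) and 3 prepubertal (orange) arrays. Symbols mark the replicates and bars the mean ± SD; ERP29 shows the widest gap, 373 to 469 against 106 to 125, while all other panels except HSPA5 overlap between groups.

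The chaperones of the Hsp70 and Hsp90 families differed less. HSPA5 had signals of 55.9, 53.9 and 50.2 in adult and 50.0, 29.9 and 33.1 in prepubertal oocytes. The groups did not overlap as deposited, but prepubertal replicate 1 almost touched the adult range, and after quantile normalization the groups overlapped. The log2 difference was −0.39 ± 0.24 (SE; limma adjusted p = 0.464; 95% interval −0.89 to 0.12), and −0.26 after quantile normalization. HSPA5 was dim, so the added 16 shrinks its difference: with 1 added in its place the log2 difference was −0.52.

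HSP90B1 was measured by 2 probe sets built on the same transcript record. The brighter one had signals of 1903, 1460 and 2025 in adult and 1746, 1070 and 1204 in prepubertal oocytes, with overlap between the groups. Its log2 difference was −0.44 ± 0.21 (adjusted p = 0.334; interval −0.87 to −0.01), and −0.15 after quantile normalization. The dimmer one had signals of 360, 186 and 274 in adult and 350, 173 and 247 in prepubertal oocytes. These values run side by side in the groups, with a log2 difference of −0.09 ± 0.27 (adjusted p = 0.899). Quantile normalization turned its sign, to 0.17. Scaled to the hybridization controls the brighter probe set had a limma adjusted p of 0.0329, where 12.8% of all tested probe sets passed. With array weights it was 0.0249, where 10.5% passed, so its call depends on the setting.

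Of the lectin chaperone and its partner, CALR had signals of 63.9, 46.0 and 79.7 in adult and 48.6, 29.6 and 53.8 in prepubertal oocytes. The groups overlapped, with a log2 difference of −0.40 ± 0.25 (adjusted p = 0.466; interval −0.93 to 0.12) and −0.26 after quantile normalization. With 1 added in place of 16, the CALR difference was −0.52.

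PDIA3 had 3 probe sets that did not move alike. The brightest had signals of 289, 233 and 241 in adult and 277, 118 and 160 in prepubertal oocytes, so that prepubertal replicate 1 lay within the adult range and the other two below it. Its log2 difference was −0.50 ± 0.26 (adjusted p = 0.379; interval −1.05 to 0.05), and −0.26 after quantile normalization. Without prepubertal replicate 1 it was −0.81 with a limma adjusted p of 0.0479, where 5.48% of all tested probe sets passed. Without the same array after quantile normalization this probe set did not pass. The second PDIA3 probe set pointed the other way, with signals of 64.9, 43.1 and 61.7 in adult and 41.9, 99.1 and 65.5 in prepubertal oocytes (log2 difference 0.18 ± 0.26, adjusted p = 0.775; 0.38 after quantile normalization). The third stayed between 0.854 and 4.92 on all 6 arrays, too low to be tested, so PDIA3 has no single direction here.

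Counted together, 7 of the 8 probe sets passed the filter on low values. Of these the 1 called at an adjusted p under 0.05 was ERP29, as its choice by this difference entails, where 0.475% of all tested probe sets were called (0.117% after quantile normalization, with ERP29 again the 1 member). Groups did not overlap for 2 of the 8, ERP29 and HSPA5, against 18.9% of all tested probe sets, and for ERP29 alone after quantile normalization, against 16.3%. ERP29 was picked for this contrast, so nothing is read from these counts. The 7 probe sets of HSPA5, HSP90B1, CALR and PDIA3 had log2 differences from −0.50 to 0.18 with a median of −0.39, 6 lower and 1 higher, beside the median of −0.20 over all tested probe sets. After quantile normalization they ran from −0.26 to 0.38 with a median of −0.15, 5 lower and 2 higher, beside −0.01. The 95% intervals of the brightest probe sets reached down to −0.87 for HSP90B1, −0.89 for HSPA5, −0.93 for CALR and −1.05 for PDIA3, so a missed threshold does not show that these genes were alike in the groups.

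**Figure D2:**
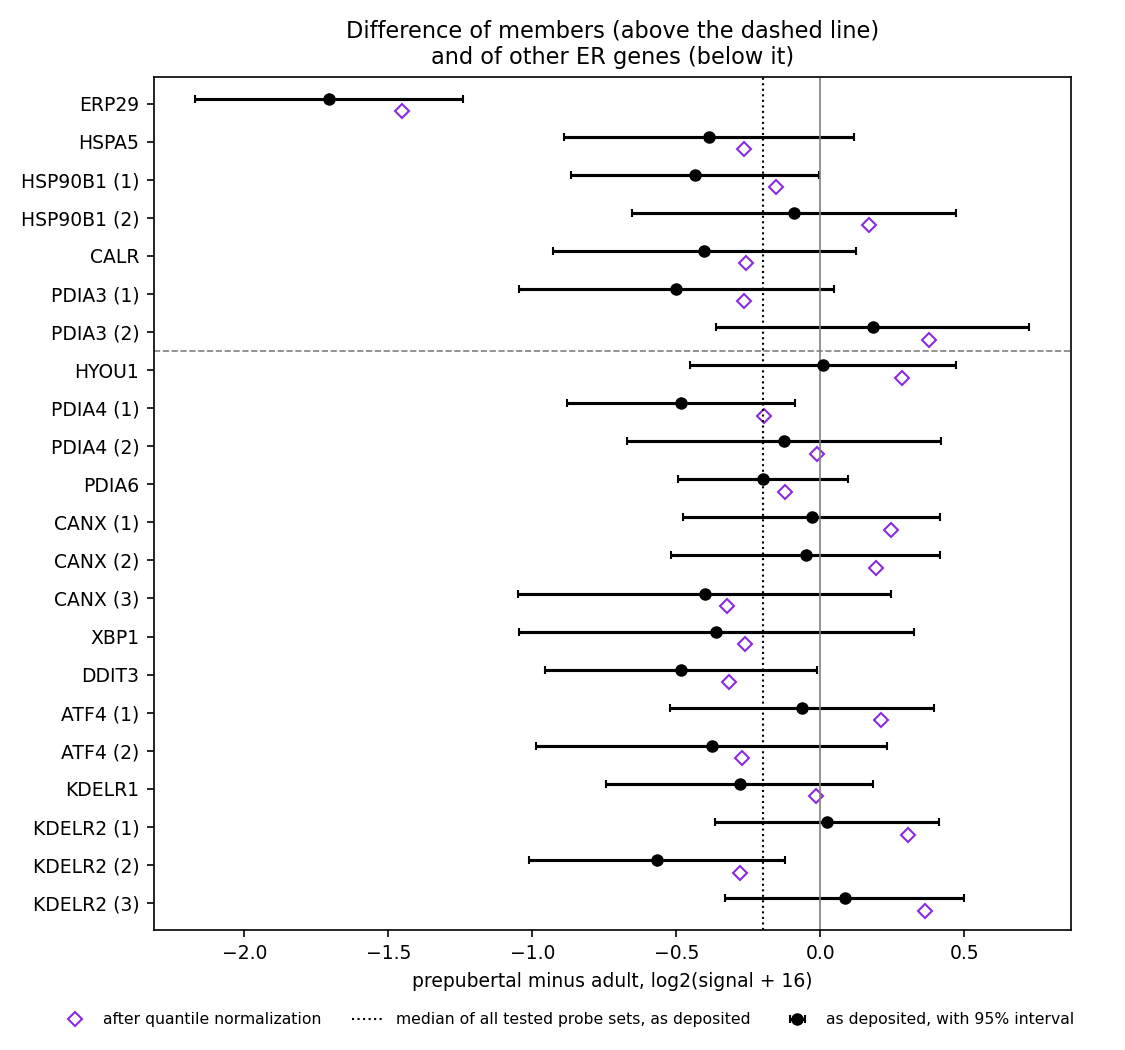
Prepubertal minus adult difference in log2(signal + 16) on the horizontal axis for the 7 tested member probe sets (above the dashed line) and for other genes of the compartment (below it), with 95% intervals as deposited and open diamonds after quantile normalization. ERP29 stands at −1.70 and −1.45, and HSPA5, HSP90B1, CALR and PDIA3 lie between −0.50 and 0.18 as deposited; numbers in brackets order probe sets of a gene from the brightest.

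Among the prepubertal arrays, replicate 1 was the highest and replicate 2 the lowest for 4 of the 7 neighbour probe sets: HSPA5, both of HSP90B1 and the brightest of PDIA3. CALR was highest in replicate 3 and lowest in replicate 2, and the other two PDIA3 probe sets were lowest in replicate 1 and highest in replicate 2. The trimmed mean signal of the whole array had the same order, at 131, 105 and 113 in prepubertal replicates 1, 2 and 3. The part of the array level in these differences was not tested beyond the normalizations given here. ERP29 had 125, 123 and 106 on the same 3 arrays.

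Dividing ERP29 by its neighbours on the same array takes the level of the array out of the comparison. The log2 value of ERP29 minus the mean of the brightest probe sets of HSPA5, HSP90B1, CALR and PDIA3 was 0.87, 0.96 and 1.01 in adult replicates 1, 2 and 3. In prepubertal replicates 1, 2 and 3 it was −0.61, 0.08 and −0.43. The groups did not overlap, and the means of 0.95 ± 0.07 and −0.32 ± 0.36 (SD, n = 3) differed by −1.27, or 2.42-fold. Against the brightest probe set of each neighbour alone the shift was of like size: −1.32 against HSPA5, −1.27 against HSP90B1, −1.30 against CALR and −1.20 against PDIA3. The second probe sets of HSP90B1 and PDIA3, with differences of their own of −0.09 and 0.18, were not used. The like size thus holds for the brightest probe sets only. The smallest gap between the lowest adult and the highest prepubertal value was 0.48, against PDIA3. These ratios use the ERP29 values that chose it and are descriptions with no test. Beside the 3.26-fold difference of ERP29 itself, 2.42-fold was left when the brightest probe sets of the neighbours were taken off.

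**Figure D3:**
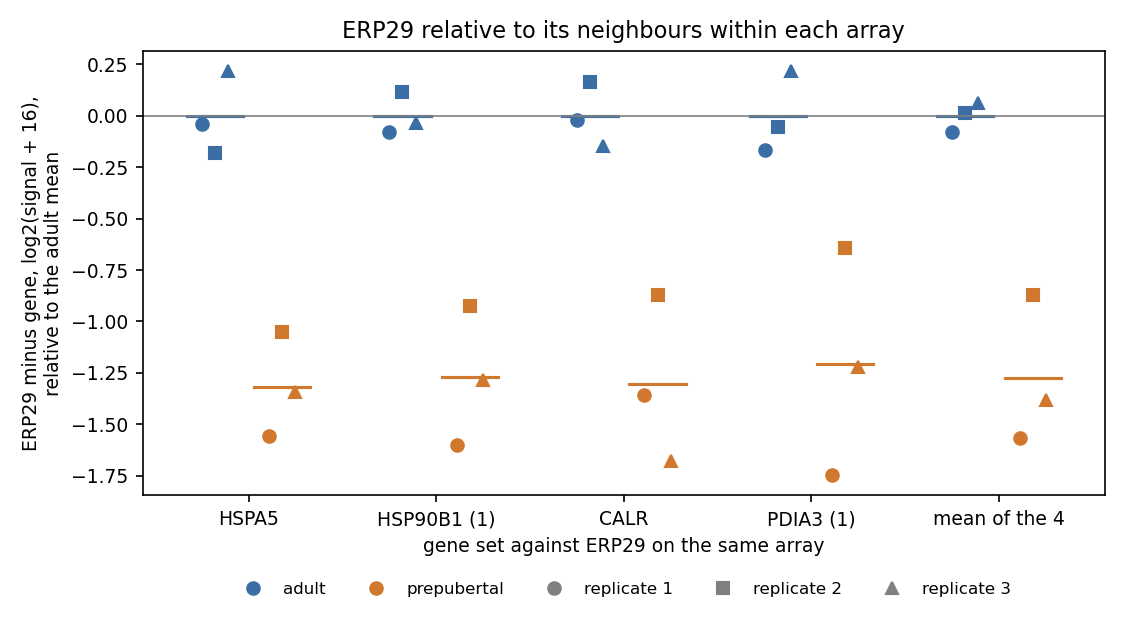
Log2(signal + 16) of ERP29 minus that of the brightest probe set of each neighbour on the same array, relative to the adult mean (vertical axis), for HSPA5, HSP90B1, CALR, PDIA3 and their mean, with replicate symbols and group means as bars. All prepubertal points (orange) lie below all adult points (blue), with mean shifts from −1.32 to −1.20.

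The wider machinery was read from 9 lists of genes drawn up by function, from chaperones to degradation. They held 215 genes, of which 140 had a probe set with a single symbol and 116 were tested, on 166 probe sets. With the members left out, 0 of the remaining 159 probe sets of 111 genes passed limma's adjusted threshold of 0.05 (lowest adjusted p 0.0814). After quantile normalization 0 passed as well (lowest adjusted p 0.192). Unadjusted p-values under 0.05 were found for 23 of the 159, or 14.5%, against 14.7% of all tested probe sets. After quantile normalization they were found for 18, or 11.3%, against 10.9% of all tested. The median log2 difference of the 159, −0.18, lay next to the −0.20 of all tested probe sets, and it was 0.00 after quantile normalization. Calls in the lists depended on the setting, as did those over all tested probe sets. Scaled to the hybridization controls, 23 of the 159 passed, or 14.5%, against 12.8% of all. With array weights 16 passed, or 10.1%, against 10.5%, and without prepubertal replicate 1 the number was 6, or 3.77%, against 5.48%. KDELR2, NUCB2, SAR1A, STT3B and UBXN4 had a call in each of these 3 settings. PDIA4, COPG2, YY1, LMAN2, SRP9, STT3A, UBE2G2, SEC23B and TMX1 had one under the first and the second. Under the first alone of the 3 it was ATP2A2, COPB1, FKBP9, MAGT1, TMBIM6, TMX4, ALG8 and UBE2J2. RPN1 and STIM2 had one under the second alone, and TMED2 under the third alone.

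ERP29's own family, the protein disulfide isomerases with their oxidases, held 17 tested probe sets of 13 genes beside the members. Their log2 differences ran from −0.58 to 0.28 (−0.43 to 0.54 after quantile normalization), and 0 passed (limma; 2 at an unadjusted p under 0.05). PDIA4 (ERp72), an isomerase with several thioredoxin domains, had signals of 2263 ± 381 in adult and 1617 ± 301 in prepubertal oocytes, without overlap (log2 difference −0.48, adjusted p = 0.258; −0.19 after quantile normalization). A dimmer PDIA4 probe set had −0.13 (−0.01). PDIA6 (P5), which works with HSPA5, had 8691 ± 1290 and 7569 ± 1104 (−0.20, adjusted p = 0.528; −0.12). The lowest value was that of the membrane-bound TMX4, at 83.7 ± 6.29 and 53.2 ± 20.8 (−0.58, adjusted p = 0.301; −0.43), while a further TMX4 probe set had 0.25 (0.40). Chosen after their values were seen, the oxidase ERO1A had −0.45 (−0.21) and the peroxiredoxin PRDX4 0.28 (0.54). The retention factor ERP44 had −0.03 and −0.00 on its probe sets, with the sign turned by quantile normalization, to 0.24 and 0.12 (adjusted p of these genes from 0.401 to 0.996).

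Among the other chaperones and cofactors, the list of Hsp70 and Hsp90 partners had 17 tested probe sets beside the members, 11 lower and 6 higher as deposited and 5 lower and 12 higher after quantile normalization. HYOU1 (GRP170), which exchanges nucleotide on HSPA5, had 336 ± 34.0 in adult and 340 ± 48.3 in prepubertal oocytes (log2 difference 0.01, adjusted p = 0.990; 0.28 after quantile normalization). FKBP9, a prolyl isomerase, had 575 ± 35.7 and 416 ± 57.4 (−0.46, adjusted p = 0.326; −0.18), SEC63, the membrane J protein that recruits HSPA5, −0.37 (adjusted p = 0.488; −0.20) with other probe sets at −0.35 (−0.07) and 0.14 (0.24), and SDF2 −0.16 (0.12).

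In the calreticulin and calnexin cycle, CANX (calnexin), the membrane-bound relative of calreticulin, had 472 ± 56.7 and 461 ± 36.6 on its brightest probe set (log2 difference −0.03, adjusted p = 0.964; 0.25 after quantile normalization). Its other tested probe sets had −0.05 (0.19) and −0.40 (−0.32). All 7 tested probe sets of this list beside CALR were lower in prepubertal oocytes by the deposited signals, and 5 of the 7 once quantile-normalized. LMAN2, a cargo lectin, had −0.48 (adjusted p = 0.317; −0.20) and −0.30 (adjusted p = 0.437; −0.02), and GANAB, the catalytic subunit of glucosidase II, −0.46 (adjusted p = 0.495; −0.31).

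The sensors and effectors of the unfolded protein response counted 13 tested probe sets, of which 0 passed (limma; 3 at an unadjusted p under 0.05), with a median of −0.17 (0.05 after quantile normalization). XBP1, the transcription factor that raises chaperone genes, was dim, at 22.7 ± 14.3 in adult and 13.2 ± 5.82 in prepubertal oocytes (log2 difference −0.36, adjusted p = 0.634; −0.26). DDIT3 (CHOP), the factor linked to cell death under lasting stress, had 86.6 ± 7.22 and 57.7 ± 10.8, without overlap (−0.48, adjusted p = 0.329; −0.32 after quantile normalization, with overlap). ATF4, which is translated when eIF2 is phosphorylated, had 411 ± 59.1 and 391 ± 48.7 (−0.06, adjusted p = 0.913; 0.21 after quantile normalization), and a dimmer probe set −0.38 (−0.27). The smallest unadjusted p in the list belonged to YY1 at −0.61 (adjusted p = 0.225; −0.35) and TMBIM6 at −0.59 (adjusted p = 0.267; −0.31), with further TMBIM6 probe sets at −0.10 (0.13) and −0.03 (0.20). EIF2S1, the alpha subunit of eIF2, had 0.12 (adjusted p = 0.832; 0.40).

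Chaperones that escape to the Golgi are brought back by receptors for the KDEL tail. KDELR1 had 234 ± 27.6 in adult and 189 ± 8.39 in prepubertal oocytes (log2 difference −0.28, adjusted p = 0.575; −0.02 after quantile normalization). The probe sets of KDELR2 differed in sign, with −0.57 (adjusted p = 0.243), 0.02 and 0.09, and after quantile normalization −0.28, 0.30 and 0.36. Those of KDELR3 stayed below a mean signal of 10 in both groups and were not tested. Of the vesicle coat genes in this list, SAR1A had −0.72 (adjusted p = 0.189; −0.52), with other probe sets at −0.31 (−0.17) and 0.13 (0.32), COPG2 −0.62 (adjusted p = 0.180; −0.34) and the brightest, COPB1, −0.27 (−0.06).

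Degradation and glycosylation held the list genes nearest to the threshold. UBXN4, which brings the ATPase VCP to the membrane for the removal of misfolded proteins, had 704 ± 144 in adult and 372 ± 41.5 in prepubertal oocytes, with no overlap in the deposited signals (log2 difference −0.88 ± 0.22, adjusted p = 0.0814; −0.60 after quantile normalization, adjusted p = 0.314, with overlap). Its brighter probe set had −0.35 (adjusted p = 0.344; −0.08). The ubiquitin-conjugating enzyme UBE2G2 had −0.76 (adjusted p = 0.266; −0.63). STT3B, a catalytic subunit of the oligosaccharyltransferase, had 1369 ± 307 and 778 ± 265, without overlap (−0.83 ± 0.23, adjusted p = 0.119; −0.54, adjusted p = 0.192). The other catalytic subunit, STT3A, had −0.56 (adjusted p = 0.267; −0.30) and −0.41 (adjusted p = 0.420; −0.13) on its probe sets, and MAGT1 ran from −0.51 (−0.22) to 0.48 (0.56) over 5 probe sets. STT3B and UBXN4 passed in the 3 settings named above, and also where testing was limited to probe sets at or above the upper quartile of the mean, where 2.88% of those tested passed.

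Genes of entry and of calcium storage did not pass in the main fit, which has no array weights. SRP9, ATP2A2 and NUCB2 did in settings given above, and STIM2, at −0.57 (−0.47), with array weights. Of 29 tested probe sets for signal recognition, translocation and signal peptide removal, 0 were at an unadjusted p under 0.05 or called by limma. SRP19 had −0.51 (adjusted p = 0.351; −0.38), SRP9 −0.37 (adjusted p = 0.356; −0.10) and SEC11A, a subunit of the signal peptidase, −0.04 (0.03). Of 11 probe sets for calcium stores, 3 were at an unadjusted p under 0.05 and 0 passed. ATP2A2, the calcium pump of the compartment, had 10015 ± 180 in adult and 10395 ± 53.9 in prepubertal oocytes on its brightest probe set (0.05, adjusted p = 0.853; 0.08), and −0.41 on each of its other tested probe sets (adjusted p = 0.309 and 0.431; −0.13 and −0.27). NUCB2 had −0.63 (adjusted p = 0.236; −0.38).

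**Figure D4:**
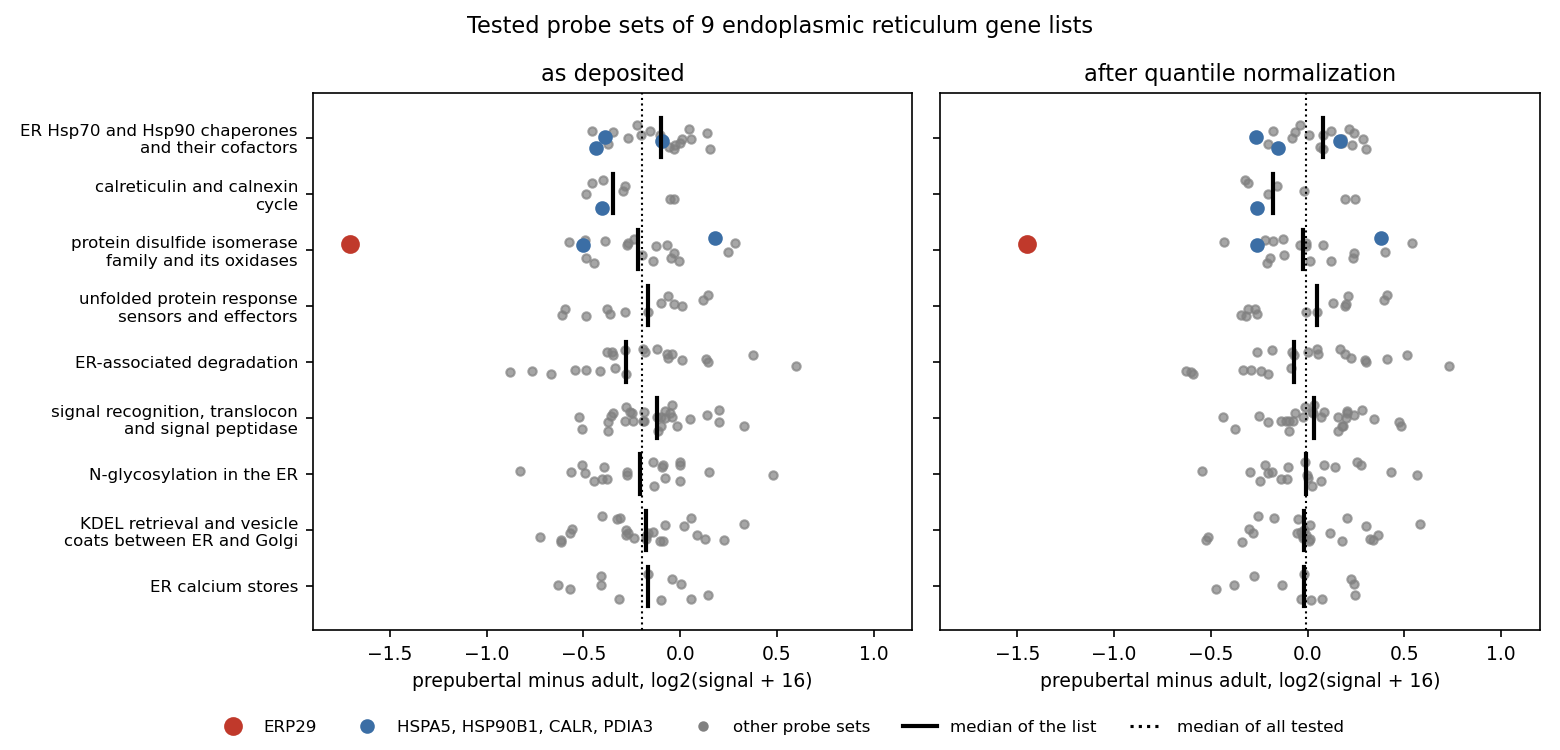
Prepubertal minus adult difference in log2(signal + 16) (horizontal axes) of every tested probe set in 9 functional lists, as deposited on the left and after quantile normalization on the right; vertical bars are list medians and dotted lines the median of all tested probe sets. ERP29 (red) stands alone at −1.70 and −1.45, while the probe sets of its own family other than ERP29 lie between −0.58 and 0.28 and between −0.43 and 0.54.

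Genes whose values over the 6 arrays were most like those of ERP29 were sought among 4599 other tested genes, by Pearson's r of quantile-normalized log2 values. The 5 highest were LPGAT1 (r = 0.999), TLK2 (0.989), UNK (0.983), SPIRE1 (0.982) and SMARCE1 (0.975), with r over 6 arrays that fall into the same groups, so that r mostly follows the group difference. Of the 4599 genes 26 had an r over 0.95 and 76 over 0.9. The sizes of the differences were not alike: SMARCE1 had a log2 difference of −1.53 (−1.33), LPGAT1 and TLK2 both −0.81 (−0.53), UNK −0.71 (−0.44) and SPIRE1 −0.33 (−0.20). None of the genes in the 9 lists of the compartment was among these 5.

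Markers of other cells were read from lists. Of 31 listed cumulus and granulosa genes 27 were measured and 12 had a mean signal under 10. Among these were the hormone receptor FSHR and the steroid synthesis genes CYP19A1, CYP11A1 and STAR on their brightest probe sets. Others were above that level. The hormone receptor LHCGR had 13.8 ± 10.9 in adult and 24.5 ± 3.96 in prepubertal oocytes, without overlap (log2 difference 0.52, limma adjusted p = 0.466, and 0.57 after quantile normalization). HSD3B1, of steroid synthesis, had 34.9 ± 6.82 and 35.9 ± 7.85, and NR5A1 59.7 ± 22.9 and 40.2 ± 28.3. The brightest of the list were FST (128 ± 24.1 in adult and 92.0 ± 1.81 in prepubertal oocytes) and INHBA (126 ± 14.6 and 100 ± 10.2). The summed signal of the list ranged from 619 to 779 in adult and from 576 to 678 in prepubertal oocytes, a log2 difference of −0.22 (−0.02 after quantile normalization). For 9 of 10 theca and stroma genes the sum ranged from 132 to 209 and from 98.9 to 152 (COL1A2 and COL3A1 the brightest, the latter at −0.85, adjusted p = 0.214; −0.75), a log2 difference of −0.44 (−0.27). For 8 of 11 blood, immune and endothelial genes it ranged from 357 to 575 and from 230 to 485, led by HBB at 296 ± 115 and 214 ± 133 and PECAM1 at 51.5 ± 6.63 and 45.9 ± 8.02, a log2 difference of −0.51 (−0.29). The differences of the theca and stroma sum and of the blood, immune and endothelial sum thus lay below the median difference of all tested probe sets in both settings, their ranges overlapped between groups, and their part in the ERP29 difference was not tested. The log2 3′ to 5′ ratio of the elongation factor control, a sign of RNA quality, was high in both groups. Its mean was 5.30 in adult and 5.19 in prepubertal arrays, with mean signals of 6756 at the 3′ end and 173 at the 5′ end. The ratio differed by −0.11 between the groups (2-sided exact permutation p = 0.9, smallest possible p 0.1). The part of this 3′ excess in probe sets of a gene that differ was not tested. The 5′ probe sets of actin and GAPDH had mean signals of 5.09 and 7.39, too low for their ratios to be read.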

How the data were processed

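The deposited intensity values are MAS5 signals, 1 per probe set and array, per the submitters' processing notes. Neither the MAS5 version nor its scaling target is stated in the sources used here. All 6 value columns matched a sample, with 0 unmatched. The 124 control probe sets were left out, 16 was added before log2, and the 12000 probe sets with a mean log2 value at or above the median were tested with limma 3.58.1 in R 4.3.3 (lmFit, eBayes with an intensity trend), 2-sided, Benjamini-Hochberg adjusted over all of them at 0.05. Values of untested probe sets come from the same fit without the filter. The 95% intervals use limma's moderated error and are not adjusted. The number of arrays limits the precision. The fit was tested on simulated data.

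Of the 23999 probe sets, 10069 had 1 symbol in the platform annotation, 198 several and 13732 were not listed there. Symbols were updated by Entrez identifier through RefSeq's table for Sscrofa11.1 for 9961.

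The members and the functional and marker lists were chosen with earlier results of these data known. Named were all members, per list the genes past the threshold, the 2 smallest unadjusted p and the brightest, fixed genes (the KDEL receptors, HYOU1, PDIA4, PDIA6, CANX, XBP1, DDIT3, ATF4, GDF9, ZP3), the 2 brightest of each marker list and the 5 genes most like ERP29. Alternatives changed the constant, the filter, the normalization, the variance trend and the threshold, weighted the arrays, blocked on the replicate number or left out 1 array.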

Additional observations from a re-analysis of the deposited data

How the results depend on the processing

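ERP29 kept its direction in all settings run, with log2 differences from −1.79 to −1.63 when an array was left out as deposited, and after quantile normalization of −1.53, −1.43 and −1.38 without adult replicate 1, 2 or 3 and −1.42, −1.55 and −1.40 without prepubertal replicate 1, 2 or 3. It was −1.41 with 64 added before log2, −1.46 with a common trimmed mean, −1.45 after quantile normalization and −1.91 scaled to the hybridization controls. ERP29 was chosen by its difference on these same arrays, so its kept direction is a description and no support. The difference to its neighbours within an array ran from −1.47 to −1.06 over 20 alternatives, moving by less than the pooled SD of the groups (0.26); variance trend, weights and threshold do not enter it. The 57 probe sets past the threshold became 15 with 1 added, 1 without a filter, 173 above the upper quartile, 14 after quantile normalization, 20 with a common trimmed mean, 7 with median centring, 1538 with hybridization controls, 1 without a variance trend, 1259 with array weights, 132 at an adjusted p of 0.10 and 3 to 658 without 1 array, the 658 without prepubertal replicate 1. After quantile normalization leaving out an array gave 0 to 198: the 198 without prepubertal replicate 1, and the 0, by limma, without adult replicate 2 (930 at an unadjusted p under 0.05). Probe sets of the lists past the threshold were 1, ERP29, as reported, and 3 above the upper quartile, 25 with hybridization controls, 18 with array weights and 1 to 8 without 1 array (0 to 2 after quantile normalization, with 0 and 2 at the same arrays as above). With the replicate block 918 probe sets passed, or 7.65% of those tested. In the lists 13 probe sets passed, from the genes ERP29, ALG8, ATP2A2, COPG2, KDELR2, NUCB2, PDIA4, SAR1A, STT3B, TMBIM6, UBXN4 and YY1. With the members left out these were 12 of 159, or 7.55%. With the block after quantile normalization 33 and 1 passed, a combination chosen after seeing the data like leaving out arrays there. Deviations of same-numbered arrays correlated at 0.03 to 0.11 as deposited. All 6 arrays correlated best with their own number as deposited and 4 of 6 after quantile normalization. Whether same-numbered arrays share a batch was not tested, and the main fit has no block. The causes of these changes in counts were not tested. HSPA5, CALR and the brightest HSP90B1 and PDIA3 probe sets stayed below 0 in all 15 settings, while the second HSP90B1 probe set was above 0 in 4 and the second PDIA3 probe set below 0 in 1. Of all tested probe sets 74.8% were below 0 as deposited and 51.1% after quantile normalization. The share that stayed below 0 in every setting was not counted, so nothing is read from the kept sign. Dim signals limit what can be seen of HSPA5, CALR and XBP1.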
